A study of Mus musculus with 2 samples.

Results

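The mouse Hox genes, which number 39 among the 43346 gene IDs of each gene table, were described here in skeletal muscle of newborn mice by their 4 chromosomal clusters and by their 13 paralog groups. The members are all protein-coding genes whose symbol is Hoxa, Hoxb, Hoxc or Hoxd followed by a number, and all 39 were found in both tables. The series holds 1 group, skeletal muscle of B6NCrl pups at postnatal day 0, with 2 biological replicates that the labels name as pup 1 and pup 2 of 1 pregnancy. The labels give no transgene, mutation or treatment, do not say which muscle or which level of the body was dissected, and record no sex. Both samples carry the same donor entry, so differences between them are differences between these 2 samples, and no comparison between conditions and no test was possible. Each library was made from 10 ng of total RNA longer than 200 nt. After rounding, the gene tables sum to 40454600 counts for pup 1 and 37150684 counts for pup 2.

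Hox genes encode homeodomain transcription factors that give cells a position along the head-to-tail axis and, in limbs, along the axis from shoulder or hip to digits. They lie in clusters that arose by duplication of an ancestral row of genes, so that genes of the same number in different clusters, the paralog group, resemble each other more than their neighbours. Low-numbered genes lie at the 3′ end of a cluster and are known for the hindbrain and neck, and high-numbered genes at the 5′ end for the lumbar and sacral trunk and the outer limb. Muscle of the trunk and limb comes from somites and is known to keep a regional Hox pattern, as do the connective tissue cells that surround it.

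Cluster A lies on the minus strand of chromosome 6, and cluster B spans chr11:96194316-96368256, cluster C chr15:102921103-103036852 and cluster D chr2:74668310-74765142, the last 3 on the plus strand (mm10, positions from GENCODE M21). Each cluster has all its Hox genes on 1 strand, and they hold 11, 10, 9 and 9 members. Levels are given in TPM, a unit of the deposited tables that corrects for transcript length, as the value in pup 1 and then in pup 2, and with mean ± SD (n = 2) where a mean is printed. A mean of 1 TPM was taken as the level that counts as reached, by rule and not as a limit of detection.

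Of the 39 Hox genes, 19 reached a mean of 1 TPM, or 48.7%, and the same 19 did so in each pup alone. Among all 21474 protein-coding genes 58.2% reached that level, so the share among Hox genes was somewhat below that background. The median over the Hox genes was 0.75 TPM, against 2.59 TPM over all protein-coding genes. The level was uneven: 7 genes above 5 TPM, Hoxa10, Hoxa7, Hoxc10, Hoxa9, Hoxd8, Hoxd9 and Hoxc9, held 79.1% of the summed Hox TPM, and the first 3 of these held 53.7%. The pattern was alike in the 2 samples, and log2(TPM + 1) of the 39 genes correlated between them (Pearson's r 0.988, Spearman's rho 0.981), where the genes share 2 libraries and are not independent points.

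**Figure D1:**
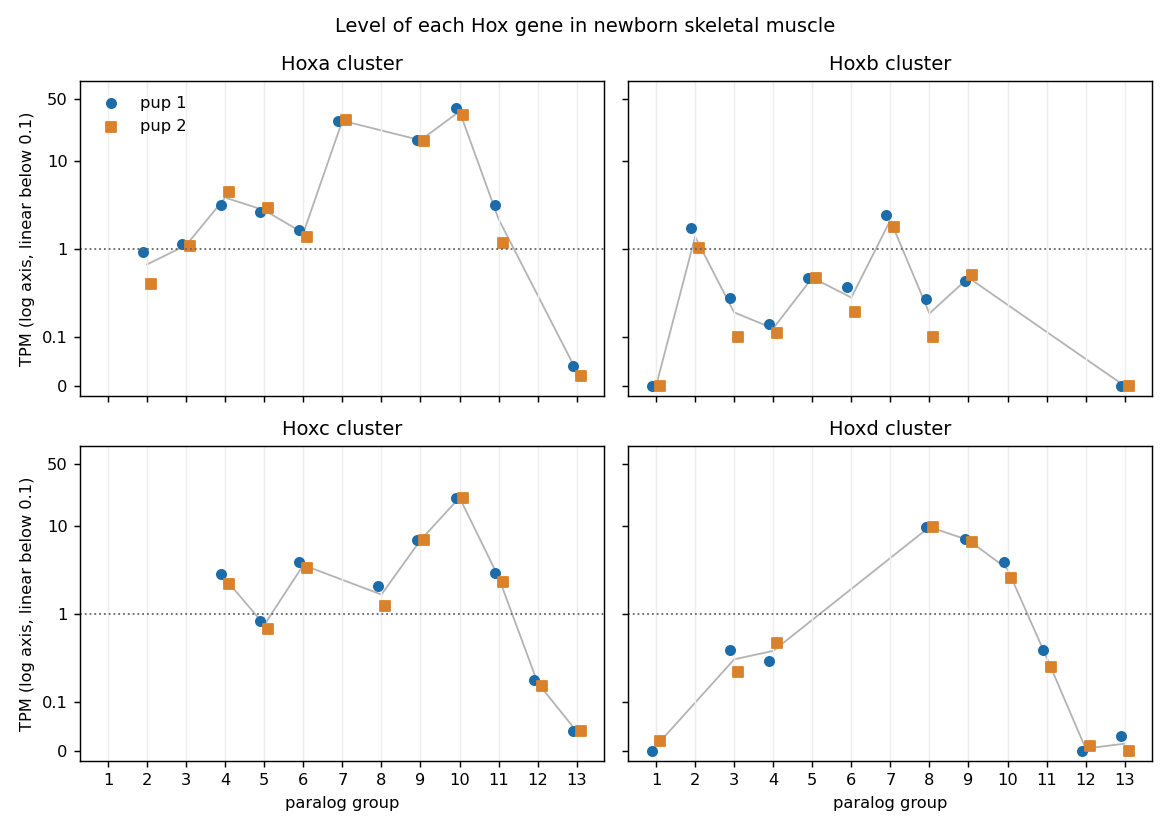
Levels of Hox genes against their paralog group, 1 panel per cluster, with the y axis in TPM (logarithmic, linear below 0.1), circles for pup 1, squares for pup 2, a grey line through the means and a dotted line at 1 TPM. Clusters A, C and D are highest between groups 7 and 10 and at or near 0 at groups 12 and 13, and no Hoxb gene exceeds 2.44 TPM in either pup.

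Hoxa10 had the highest level of all Hox genes, at 39.68 TPM in pup 1 and 32.80 TPM in pup 2 (36.2 ± 4.86, gene ENSMUSG00000000938.11, chr6:52231197-52240854). It belongs to the group known for the lumbar column and the upper limb segment. Hoxa7, a mid-trunk gene (chr6:52214491-52221854), stood at 28.12 and 28.66 TPM, and Hoxa10 and Hoxa7 did not differ beyond their spread (log2 ratio 0.34 ± 0.21, where an order was taken to hold past 3 SD). Hoxc10 (chr15:102966796-102971893) followed at 20.85 and 20.79 TPM, and Hoxa9 (chr6:52223100-52231089) at 17.31 and 16.81 TPM. Both steps, from Hoxa7 to Hoxc10 and from Hoxc10 to Hoxa9, were small but larger than the spread between the pups.

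The order at the top depended on how length enters the level. With counts divided by the union of a gene's annotated exons, Hoxc10 came first at 35.2 and Hoxa10 next at 33.5 scaled counts per kilobase, and Hoxa9 moved to rank 7. With only transcripts of protein-coding class, described further on, Hoxc10 came first at 20.8 TPM and Hoxa10 was at rank 5 with 9.32 TPM.

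The remaining genes above 5 TPM belong to groups 8 and 9, which are known for the trunk between the forelimb and the hindlimb. Hoxd8 (chr2:74704615-74707933) was measured at 9.58 and 9.75 TPM. Hoxd9 was at 7.11 and 6.61 TPM and Hoxc9 at 6.88 and 6.82 TPM, values that overlap and cannot be ordered (log2 ratio 0.00 ± 0.06). Below them, Hoxa4, Hoxc6, Hoxd10, Hoxa5, Hoxc11 and Hoxc4 form a run from 3.81 down to 2.50 mean TPM in which no neighbour differed from the next beyond its spread.

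The summed Hox level was 166.72 TPM in pup 1 and 151.77 TPM in pup 2. Cluster A supplied 59.2 ± 0.18% of it, cluster C 24.5 ± 0.32%, cluster D 13.05 ± 0.09% and cluster B 3.25 ± 0.59% (SD, n = 2), and this order held in both samples. Without Hoxa10, the rest of cluster A still summed to 58.86 and 57.30 TPM, above all of cluster C at 40.42 and 37.48 TPM. Under the exon-union length the share of cluster A was 45.5%, that of cluster C 32.9% and that of cluster D 18.1%, so the order of the clusters was the same and the distances were smaller.

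By paralog group the sum peaked at group 10, with 64.39 and 56.16 TPM or 37.8% of the Hox total. Group 9 held 19.6% (31.73 and 30.75 TPM) and group 7 held 19.2% (30.56 and 30.44 TPM). Groups 7 to 10 together held 83.9 ± 1.06%. The anterior groups 1 to 3 held 2.65 ± 0.65%, groups 4 to 8 held 36.6 ± 1.93% and groups 9 to 13 held 60.8 ± 1.28%. The most posterior groups, 12 and 13, held 0.159% over their 6 genes, with 13 and 9 counts in all, and all 6 had fewer than 10 mean counts.

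**Figure D2:**
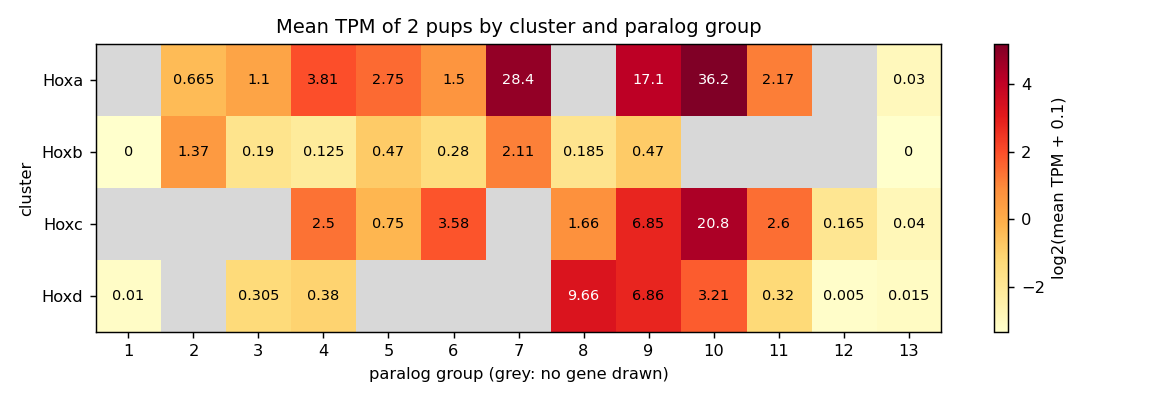
Mean TPM of the 2 pups for Hox genes, with clusters as rows, paralog groups as columns, colour on a log2(mean TPM + 0.1) scale and grey where no gene is drawn. The 7 values above 5 TPM lie in groups 7 to 10 of clusters A, C and D, from 6.85 TPM for Hoxc9 to 36.2 TPM for Hoxa10.

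Along cluster A, 8 of 11 genes reached 1 TPM, an unbroken run from Hoxa3 to Hoxa11. Hoxa2, known for hindbrain patterning, was at 0.93 and 0.40 TPM and Hoxa3 at 1.12 and 1.08 TPM. Hoxa4 (3.17 and 4.44 TPM), Hoxa5 (2.61 and 2.88 TPM) and Hoxa6 (1.64 and 1.37 TPM) made a low plateau of cervical and thoracic genes. Between Hoxa6 and its neighbour Hoxa7, 13.1 kb apart by their starts, the level rose 17.8-fold (log2(TPM + 0.1) difference 4.15 ± 0.19).

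Past Hoxa10 the level in cluster A fell again, 17.8-fold from Hoxa10 to Hoxa11 (log2 difference -4.15 ± 0.77). Their annotated gene starts lie 4.96 kb apart, but most of the Hoxa10 level was placed in a form that starts elsewhere, described further on. With only transcripts of protein-coding class the step was smaller, from 9.32 mean TPM for Hoxa10 to 1.71 for Hoxa11. Hoxa11, known for the forearm and lower leg segment, was at 3.17 TPM in pup 1 and 1.17 TPM in pup 2. Hoxa13, known for digits and the hind gut, had 3 and 1 counts, or 0.04 and 0.02 TPM. Hoxa7, Hoxa9 and Hoxa10 thus stood as a block of 3 neighbours at 16.81 TPM or more in both samples, with genes under 5 TPM on either side.

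Cluster C had 6 of 9 genes at 1 TPM, and its steps were alike in both pups. Hoxc4 was at 2.84 and 2.16 TPM, Hoxc5 at 0.83 and 0.67 TPM, Hoxc6 at 3.86 and 3.29 TPM and Hoxc8 at 2.07 and 1.24 TPM. From Hoxc8 the level rose 4.08-fold to Hoxc9 and 3.01-fold from Hoxc9 to Hoxc10. It then fell 7.80-fold from Hoxc10 to Hoxc11 (2.87 and 2.32 TPM) and 10.1-fold from Hoxc11 to Hoxc12 (5 and 4 counts). Hoxc13, a gene known from hair and nails, had 3 counts in each library.

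In cluster D only Hoxd8, Hoxd9 and Hoxd10 of 9 genes reached 1 TPM in these samples. The level stepped up 20.7-fold from Hoxd4 (0.29 and 0.47 TPM) to Hoxd8 (log2 difference 4.37 ± 0.37) and then declined in order to Hoxd9 and to Hoxd10 (3.86 and 2.57 TPM). From Hoxd10 to Hoxd11 (0.39 and 0.25 TPM) it fell 7.85-fold. Hoxd1, Hoxd12 and Hoxd13, the latter known for digits, had at most 2 counts in any library, and at such counts no order among them can be read.

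Cluster B was low throughout, with 2 of 10 genes at 1 TPM and a highest mean of 2.11 TPM. Hoxb7 was at 2.44 and 1.78 TPM and Hoxb2, a hindbrain and facial nerve gene, at 1.71 and 1.03 TPM. Hoxb5, Hoxb9, Hoxb6, Hoxb3, Hoxb8 and Hoxb4 had mean levels between 0.47 and 0.125 TPM. Hoxb1 and Hoxb13 were at 0 counts in both libraries, and a floor of 3 counts would allow up to 0.0752 TPM for Hoxb1 and 0.0476 TPM for Hoxb13 in pup 1. Hoxb2 and Hoxb3 share exon sequence with the antisense gene Hoxb3os on the opposite strand (27.3% and 52.9% of their exon bases). The sources used here do not say whether counting used strand, so reads of these genes and of Hoxb3os cannot be told apart with certainty, and the posterior SD of Hoxb2, at 8.98 reads in pup 1, was the largest among the members. In all, 10 members share exon bases with a gene on the opposite strand, and the same limit holds for them.

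Some paralogs of the same number differed strongly in level between clusters. Ordered by mean level within each group, 16 of 26 neighbouring pairs differed beyond 3 SD. That count is a description, since order and spread came from the same 2 samples and other pairs of genes were not counted. Hoxa7 was 13.04-fold above Hoxb7, Hoxc9 was 12.2-fold above Hoxb9, and Hoxc10 was 6.43-fold above Hoxd10. In group 11, by contrast, Hoxc11 and Hoxa11 could not be ordered, since Hoxa11 was the higher of the pair in pup 1 and the lower in pup 2. Hoxa genes had the highest mean in groups 3, 4, 5, 7, 9 and 10, although Hoxa4 and Hoxc4 in group 4 did not differ beyond their spread. Hoxb2 had the highest mean in group 2, Hoxc6 in group 6, Hoxd8 in group 8, Hoxc11 in group 11, Hoxc12 in group 12 and Hoxc13 in group 13. Hoxc13, with 3 counts in each library, did not differ from Hoxa13 beyond its spread.

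The next question was which transcripts of each gene carried the reads. These shares are estimates of a model that divides reads among annotated transcripts, and were looked at for the 29 members with at least 10 mean counts. Of these, 8 have 1 annotated transcript and 21 have several, and the transcript with the largest TPM was the same in both pups for 14 of the 21. For Hoxa10 the leading transcript was Hoxa10-203, annotated as a processed transcript without a coding frame, at 71.72% of the gene's TPM in pup 1 and 75.36% in pup 2. Of its expected counts, 68.1% and 71.99% were placed there, or 1370.82 and 1126.00 counts. Hoxa10 was the only member whose leading transcript by TPM was not protein-coding in both pups.

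Hoxa10-203 joins an exon of 128 nt at chr6:52233197-52233324 to the last exon, which holds the homeobox. That short exon lies in the intron between the first coding exon of Hoxa10-202 (chr6:52233959-52234939) and the last exon. Hoxa10-202, the full coding form, had 14.75% and 12.90% of the TPM, and Hoxa10-201, a coding form that starts further upstream at chr6:52240278-52240854, had 12.49% and 10.99%. A read across a splice junction tells these 3 forms apart, as can a read within a form's own exon. The sequences at the 3 junctions follow, 5′ to 3′ on the minus strand of chromosome 6 (GENCODE M21 transcripts, mm10). The first 15 bases of the shared last exon are in capitals and the last 15 bases of each form's own exon in lower case.
Hoxa10-203: atctaggaggctaggGCAGTTCCAAAGGCG
Hoxa10-202: agaaggactccctggGCAGTTCCAAAGGCG
Hoxa10-201: ctgaaatgagtcaagGCAGTTCCAAAGGCG

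Reads within these exons or across these junctions were not counted here, so the share of each form rests on the model. The exon that only Hoxa10-203 has among the 4 annotated forms is shown in full and has the following 128 bases.
Hoxa10-203 exon 1: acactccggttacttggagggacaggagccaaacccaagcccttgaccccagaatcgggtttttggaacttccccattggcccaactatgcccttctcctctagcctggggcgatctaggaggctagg

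**Figure D3:**
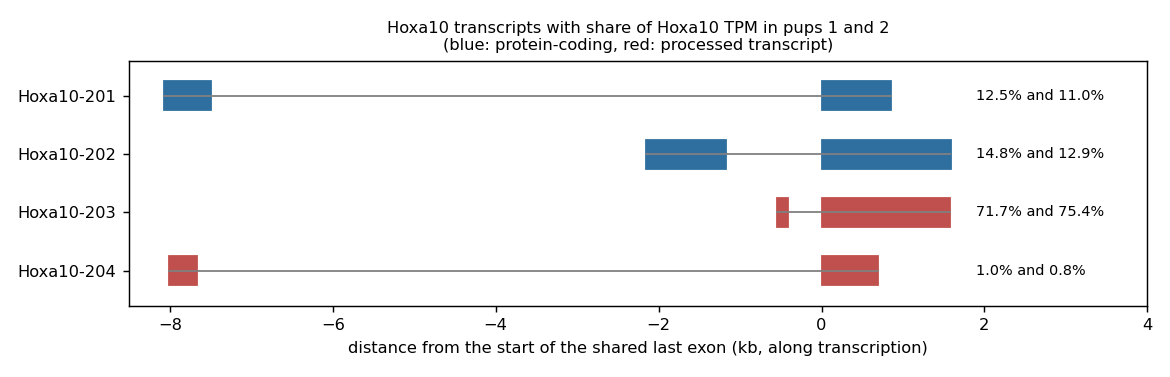
The 4 annotated Hoxa10 transcripts drawn to scale by distance in kb from the start of their shared last exon, with boxes for exons, blue for protein-coding and red for processed transcripts, and each form's share of the gene's TPM in pup 1 and pup 2 on the right. Hoxa10-203, whose own exon lies nearest to the shared exon, holds 71.72% and 75.36%.

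Hoxa7 was split among 5 transcripts. Hoxa7-205, annotated as a target of nonsense-mediated decay, had 36.53% and 33.36% of the TPM, and Hoxa7-203, a short coding form of 643 nt, had 30.53% and 35.78%. The leader by TPM therefore differed between the pups, while by expected counts it was Hoxa7-205 in both (56.5% and 54.4%). Hoxa9 was also divided, with Hoxa9-202 at 36.02% and 31.02% and the longer Hoxa9-201 at 34.40% and 36.54% of the TPM, and by counts Hoxa9-201 led in both pups (63.5% and 64.6%). Hoxa9-205, a retained-intron form, covers the position of Mir196b and held 11.03% and 13.23%.

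Simpler patterns were found for other members. Hoxc9-201, of 2 annotated transcripts, took all of its gene's TPM in both pups. Hoxc10-201, Hoxd9-201, Hoxd10-201, Hoxa4-201, Hoxa5-201 and Hoxc11-201 are each the only annotated transcript of their gene. Their share was thus fixed by the annotation. Hoxd8-201 led with 91.15% and 92.99%, Hoxc4-201 with 72.92% and 77.08% and Hoxc6-201 with 62.48% and 64.93%. In Hoxa11 the coding Hoxa11-201 led with 84.43% in pup 1 and 64.00% in pup 2. In Hoxc8, at 120 and 71 counts, the retained-intron form Hoxc8-202 had 48.20% of the TPM in pup 1 and 74.05% in pup 2, so the leader by TPM differed between the pups. By expected counts Hoxc8-202 led in both, with 52.8% and 77.4%.

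**Figure D4:**
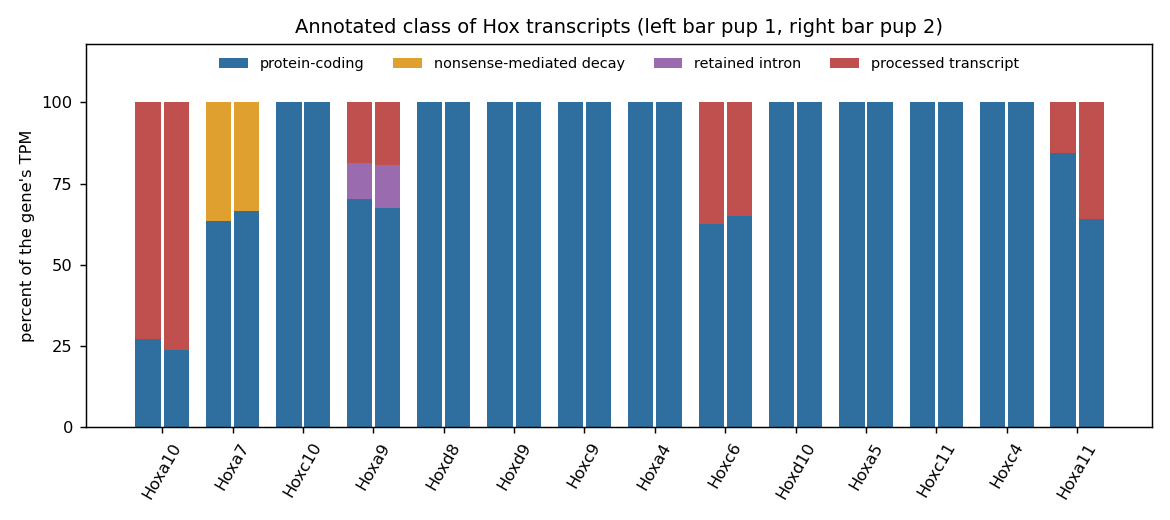
Percent of each gene's TPM in transcripts of 4 annotated classes, for the 14 Hox genes with at least 100 mean counts in order of level, with the left bar for pup 1 and the right bar for pup 2. Protein-coding forms take 27.2% and 23.9% of Hoxa10 and 63.5% and 66.6% of Hoxa7. They take all of Hoxc10 and Hoxd8, for which no other class is annotated.

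The 2 pups were then set against each other, gene by gene, as log2 ratios of pup 2 over pup 1 from TMM-scaled counts, for the 29 members with at least 10 mean counts. With 1 library per pup these ratios have no replicate check, and the intervals given cover counting error only. Lower values in pup 2 were seen for 15 members and higher values for 14, with a median log2 ratio of -0.07 against -0.01 over all 17004 genes that passed the same count minimum. Hoxa2 and Hoxa11 were at least 2-fold higher in pup 1, a difference that 4.95% of all genes showed, and Hoxd3 was at least 2-fold higher in pup 2, which 1.39% of all genes showed. With 2 and 1 of 29 members, these shares are near the background.

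Hoxa11 had the clearest difference. It held 204.41 counts in pup 1 and 70.00 counts in pup 2, a level 2.51-fold higher in pup 1 after scaling (95% counting interval 1.91 to 3.35). The counts of its coding form Hoxa11-201 were 174.93 and 46.24, while those of the processed transcript Hoxa11-202 were 29.48 and 23.76. Hoxa11os, the antisense gene that overlaps 35.0% of the Hoxa11 exon bases, held 103.64 and 62.30 counts. As with Hoxb3os, reads of the shared bases cannot be assigned with certainty to Hoxa11 or Hoxa11os. The nearest genes toward the 3′ end differed less, with Hoxa10 1.11-fold higher in pup 1 (1.04 to 1.19) and Hoxa9 1.11-fold higher in pup 2 (1.01 to 1.22). Further on, Hoxa4 was 1.53-fold higher in pup 2 and Hoxa2 2.11-fold higher in pup 1. Hoxa13, the neighbour of Hoxa11 on the other side, had 3 and 1 counts and a ratio too uncertain to compare (2.59-fold higher in pup 1, interval 0.21 to 136).

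Hoxa2 had 44.00 and 17.95 counts and was 2.11-fold higher in pup 1 (1.19 to 3.88), an interval that includes differences well under 2-fold. With posterior mean counts its log2 ratio was -0.97, short of 2-fold. Hoxd3 had 4.77 counts in pup 1 and 17.86 in pup 2, but its TPM went the other way, at 0.39 and 0.22. The effective length of Hoxd3 was 409.63 nt in pup 1, where the short form Hoxd3-205 took 96.33% of the TPM, and 2819.83 nt in pup 2, where Hoxd3-203 took 80.09%. Hoxd3 also shares 53.1% of its exon bases with a gene on the same strand, Gm28230, so neither direction can be relied on.

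Smaller differences beyond counting error were found for other members. Hoxd10 (198 and 125 counts) was 1.37-fold and Hoxc8 1.46-fold higher in pup 1, and Hoxb2 was 1.51-fold higher there. Hoxa4, with 141.90 and 187.80 counts, was 1.53-fold higher in pup 2 (1.23 to 1.92). In all, 6 of 29 members were higher in pup 1 and 5 higher in pup 2 beyond counting error. The same rule was met by 25.2% of the 17004 genes in the direction of pup 1 and by 21.1% in that of pup 2, so the counts among Hox genes are near the background.

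**Figure D5:**
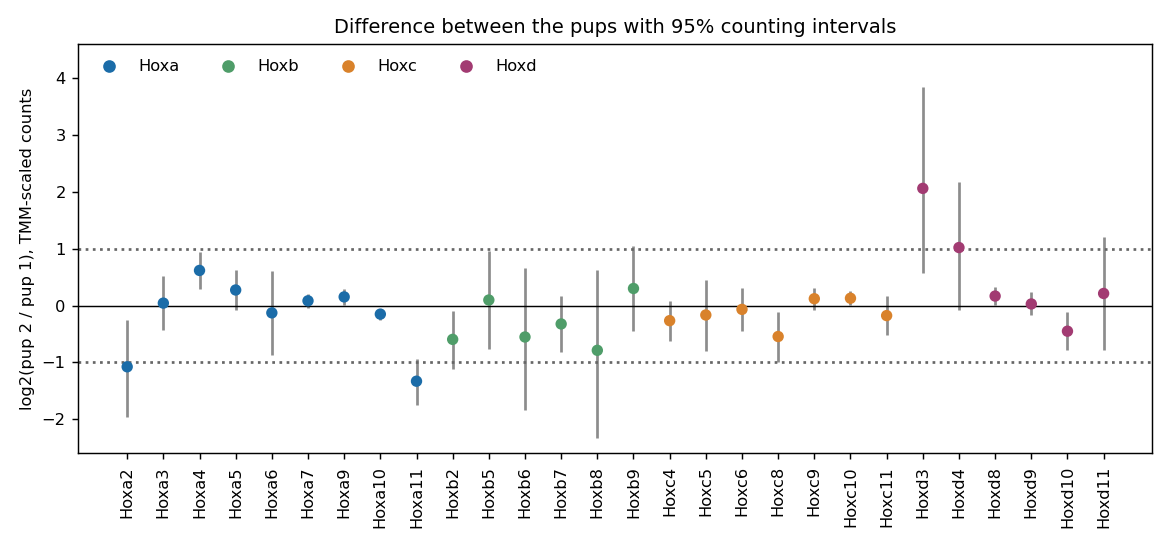
The log2 ratio of pup 2 over pup 1 for Hox genes with at least 10 mean counts, in order along the clusters, with points for the ratio of scaled counts, vertical lines for 95% counting intervals and dotted lines at 2-fold. Hoxa11 lies lowest with an interval that reaches 1.91-fold at its near end, and Hoxd3 lies highest with the widest interval.

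The samples also differed in markers of other tissues. Muscle fibre markers summed to 89555 TPM in pup 1 and 99897 TPM in pup 2, with all 8 at 1 TPM or more. Markers of epidermis and hair summed to 452 and 9.13 TPM, with 7 of 10 listed genes at least 2-fold higher in pup 1 and Krt35 and Dsg3 at 0 counts in pup 2. Adipocyte markers summed to 2392 and 102 TPM (5 of 5 higher in pup 1), cartilage markers to 44.8 and 4.67 TPM (6 of 7, with Snorc at 0 counts in pup 2) and bone markers to 25.3 and 1.72 TPM (3 of 4, with Bglap at 0 counts in pup 2). Fibroblast markers, 8 of 8 at 1 TPM or more and none 2-fold apart, summed to 5227 and 3780 TPM, and tendon markers, with 1 of 4 at least 2-fold higher in pup 1, to 177 and 78.6 TPM. The part of these tissues in the ratios of Hoxa11 and Hoxa2 was not tested. In such bulk samples, fewer cells of a type and less RNA per cell cannot be told apart.

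All of the satellite cell (4), endothelium (5), Schwann cell (4) and leukocyte (5) markers reached 1 TPM, and none of them was 2-fold apart. Over all protein-coding genes, 58.2% reached that level. The satellite cell list summed to 109.6 and 119.96 TPM, endothelium to 215.45 and 198.71 TPM and Schwann cells to 77.3 and 67.5 TPM. The leukocyte list was further apart, at 1092 and 603 TPM with a median log2 ratio of -0.45. No neuron marker of 6 reached a mean of 1 TPM, the list summed to 2.18 and 0.94 TPM, and Chat, the acetylcholine-making enzyme of motor neurons, was at 0 counts in both. Isl1, another motor neuron gene, had 54 and 16 counts and was at least 2-fold higher in pup 1. Spinal motor neurons, whose cell bodies lie outside muscle, are known to express Hox genes.

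Between and beside the Hox genes lie genes that make no protein, some of them known regulators of the clusters. Within the spans of the clusters widened by 20 kb, 48 such genes are annotated, of which 9 reached a mean of 1 TPM, and 7 of those also had at least 10 mean counts. Some of the 48, such as Gm27280 and Gm28032, have an effective length of 0 nt, so their 0 counts give no measure of them. The share over all noncoding genes of the genome was not computed. Hoxd3os1, antisense to Hoxd3 and Hoxd4, was highest at 16.8 and 14.77 TPM (278 and 236 counts), well above Hoxd3 and Hoxd4 themselves. Hotairm1, an RNA of cluster A that is known from myeloid cells, was at 12.98 mean TPM with 89.35 and 74.00 counts. Its effective length was only 222 nt in pup 1, so its TPM rests on few reads. Hoxaas3 (4.40 mean TPM), Gm15050 (3.56), Hoxa11os (3.23), Hoxaas2 (2.24) and Hotair (1.36) followed. The list by level also holds Gm27477 at 2.35 mean TPM, which rests on 3 counts in each library.

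Hotair, which lies in cluster C and is known as a partner of Polycomb, had 76 and 75 counts. Hottip, at the 5′ end of cluster A next to Hoxa13, was at 0 counts in both, which allows up to 0.0449 TPM in pup 1 and 0.0474 TPM in pup 2. Haglr, beside Hoxd3 in cluster D, had 5 and 3 counts. Hoxd3os1 (chr2:74703248-74716130, minus strand), the highest noncoding gene, shares exon bases with Hoxd3 and Hoxd4, both under 1 TPM, and its span also contains Hoxd8, the highest gene of cluster D, with which it shares none.

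The clusters also hold miRNA genes, which were matched by name to RefSeq (GRCm38.p6). The 6 such genes annotated in the tables were at 0 counts, but their effective length was at most 11 nt and the RNA was selected above 200 nt, so these libraries give no measure of them. Their mature sequences are given because they pair with the transcripts of several members, with the seed, bases 2 to 8, in capitals.
mmu-miR-196a-5p: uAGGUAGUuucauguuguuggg
mmu-miR-196b-5p: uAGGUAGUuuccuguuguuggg
mmu-miR-10a-5p: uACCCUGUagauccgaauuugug
mmu-miR-10b-5p: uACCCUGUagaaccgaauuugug

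The miR-196 pair shares a seed, as does the miR-10 pair. Mir196b (5p arm at chr6:52230129-52230150) lies between Hoxa7 and Hoxa10 inside the span of Hoxa9, Mir196a-1 (chr11:96265187-96265208) between Hoxb13 and Hoxb9, and Mir196a-2 (chr15:102973365-102973386) between Hoxc10 and Hoxc9. Mir10a (chr11:96317186-96317208) lies between Hoxb5 and Hoxb4, and Mir10b (chr2:74726074-74726096) inside the annotated spans of Hoxd3 and Hoxd4.

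The longest annotated 3′ UTR of each gene was searched on the sense strand for ACTACCT, the match to the miR-196 seed. It was found in 9 of 39 members (23.1%), among them Hoxa4, Hoxa5, Hoxa7, Hoxa9, Hoxb1, Hoxb6, Hoxb7 and Hoxc8, against 6.14% of 20576 protein-coding genes with such a UTR. The median UTR length was 966 nt over the members and 973.5 nt over all genes, and the part of UTR length or sequence in these shares was not tested. ACAGGGT, the match to the miR-10 seed, was in 4 members (10.3%; among them Hoxa3, Hoxb3 and Hoxd1), against 12.6% of all genes. Hoxa7, next to Hoxa10 in mean TPM, had 4 miR-196 matches, the most of any.

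Hoxb8 has no exact seed match, but its 3′ UTR pairs with miR-196a-5p along all 22 bases, 21 by Watson-Crick pairs and 1 by a G:U pair inside the seed region. Over the 39 members the best ungapped site for miR-196a-5p had a median of 17 pairs, and the next best after Hoxb8 had 19. The Hoxb8 site is printed with the site of most pairs that matches the seed in Hoxa7 and with the site in Hoxc8 that matches the seed and is followed by an A, with the bases opposite the seed in capitals.
Hoxb8 site, chr11:96284888-96284909: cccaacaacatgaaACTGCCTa
Hoxa7 site, chr6:52215210-52215231: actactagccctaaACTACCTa
Hoxc8 site, chr15:102993733-102993754: taaatctttaacatACTACCTa

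The 3 genes with these sites stood far apart in level. As whole genes, Hoxb8 was at 0.27 and 0.10 TPM on 14 and 7 counts, Hoxc8 at 2.07 and 1.24 TPM and Hoxa7 at 28.12 and 28.66 TPM. Of the annotated Hoxa7 transcripts, only Hoxa7-205 (10.27 and 9.56 TPM) and Hoxa7-201 (4.01 and 3.56 TPM) contain the printed site. A match of letters is a description of the sequence, and no measure of the miRNAs was available to set beside it.

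RefSeq promoter windows, 250 bases before to 50 after a start, were at hand for 22 of the 39 members, 24 windows in all, and were read for CpG, the letters CG, which in Hox clusters often form long unmethylated islands. The members' windows held 4 to 45 CpG with a median of 14.5, against a median of 7 over 32851 windows, and 20 of 24 held more than 7. The window of Hoxa13 had the most, 45, although the gene had 3 and 1 counts. That of Hoxa9 had 4 and lies at the start of Hoxa9-201, which held 34.40% and 36.54% of the gene's TPM. Hoxa9 as a whole was at 17.1 mean TPM. For Hoxa10, the window at the start of Hoxa10-202 had 21 and that at the start of Hoxa10-201 had 12. Hoxa10-202 held only 14.75% of the gene's TPM in pup 1 and 12.9% in pup 2. Hoxa10-203, with 71.72% and 75.36%, starts at another exon, and no window at its start was at hand. The window of Hoxa10-202 is therefore not that of the form with most of the Hoxa10 level. The 250 bases before the starts of Hoxa10-202 and Hoxa13 are shown, on the minus strand and with CpG in capitals.
Hoxa10, chr6:52234940-52235189: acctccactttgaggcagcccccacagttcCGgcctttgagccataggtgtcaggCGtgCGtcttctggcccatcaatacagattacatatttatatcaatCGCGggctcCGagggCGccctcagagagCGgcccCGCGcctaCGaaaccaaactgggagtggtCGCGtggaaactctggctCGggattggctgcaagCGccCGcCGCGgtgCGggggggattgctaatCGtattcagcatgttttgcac
Hoxa13, chr6:52260881-52261130: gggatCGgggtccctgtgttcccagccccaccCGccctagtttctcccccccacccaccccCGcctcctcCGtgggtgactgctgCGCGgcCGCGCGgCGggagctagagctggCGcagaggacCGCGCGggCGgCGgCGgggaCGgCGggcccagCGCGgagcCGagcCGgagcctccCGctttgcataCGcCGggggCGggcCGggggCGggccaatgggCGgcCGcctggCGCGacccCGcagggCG

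Hox proteins are known to bind DNA together with TALE homeodomain cofactors of the Pbx, Meis and Pknox families. All 9 of these reached 1 TPM, as did 58.2% of all protein-coding genes, and none was 2-fold apart between the pups. Meis1 was highest at 15.01 and 16.17 TPM, followed by Pknox1 (9.68 and 9.51), Pknox2 (8.91 and 8.55) and Meis3 (9.56 and 6.90). The summed level of the 9 cofactors was 66.76 and 62.48 TPM, and that of the 39 Hox genes was 166.72 and 151.77 TPM. Per gene the cofactors were higher, with a median of 6.87 TPM against 0.75 TPM over the Hox genes.

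Genes that border the clusters or descend from the sister ParaHox cluster were at or near 0. None of 8 reached 1 TPM, a level that 58.2% of all protein-coding genes reached. Evx2, Gsx1, Gsx2, Pdx1, Cdx1, Cdx2 and Cdx4 were at 0 counts in both pups, and Evx1, next to Hoxa13, had 2 counts in pup 1 and 0 in pup 2. Evx1 and Evx2 lie beyond Hoxa13 (3 and 1 counts) and Hoxd13 (2 and 0 counts). Hoxd1, at the other end of cluster D, was as low, with 0 and 1 counts.

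Of 12 transcription factors known for limb and body wall regions, 8 reached 1 TPM, a level that 58.2% of all protein-coding genes reached. Among the 8 were Shox2 (17.68 and 13.78 TPM), Lbx1, a factor of migrating limb muscle precursors (9.03 and 8.79), and Tbx1 (6.76 and 6.79). The hindlimb factors Pitx1 (3.60 and 3.58 TPM) and Tbx4 (1.97 and 1.91 TPM) reached 1 TPM, and the forelimb factor Tbx5 did not (0.15 and 0.17 TPM on 17 and 19 counts). These 3 genes were named after their values were seen.

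Chromatin regulators that are known to keep Hox genes off or on were set beside the 58.2% of all protein-coding genes that reached 1 TPM. Of 16 Polycomb genes 15 reached 1 TPM, led by Rnf2 at 28.4, Cbx6 at 19.1, Eed at 17.3 and Phc2 at 15.2 mean TPM. All 13 genes of the Trithorax and H3K27 demethylase list reached it. That list also holds Ctcf, which is of neither class and divides active from silent parts of Hox clusters. Ctcf was highest at 34.8 ± 4.23 TPM, then Ash2l at 28.4, Wdr5 at 19.2 and Men1 at 16.2 mean TPM. No gene of either list was 2-fold apart between the pups.

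Retinoic acid is a known activator of the 3′ ends of Hox clusters. Of 16 genes of its pathway 13 reached 1 TPM, against 58.2% of all protein-coding genes. The highest were the receptor Rxrg at 48.5, the binding protein Crabp1 at 29.6, and the receptors Rxrb at 26.4 and Rara at 20.7 mean TPM. Crabp2 (69 and 16 counts) and the degrading enzyme Cyp26b1 (89 and 34 counts) were at least 2-fold higher in pup 1, the sample with more epidermal and adipocyte marker RNA, whose part in this was not tested. Cyp26c1 was at 0 counts in both.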

How the data were processed

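Total RNA of 2 newborn muscle samples was sequenced, and each sample's gene and transcript table was used. Per the file headers, the authors deposited expected counts (estimated reads per feature), TPM, posterior means of both, and each transcript's percent of its gene's TPM; quantification used mm10 and GENCODE M4 per the notes filed with the tables. The quantifier is not given in the sources used here. Spike-ins and rows without a gene ID were left out. Names, classes and positions came from GENCODE M21 by unversioned ID (42462 of 43346 IDs matched). Transcripts of M21 with the same ID differ in length from the tables for 2 of 87 Hox transcripts.

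Levels are TPM, mean and SD over 2 samples. For ratios between the pups, expected counts were rounded, scaled by TMM in edgeR 4.0.16 (R 4.3.3) and expressed as log2 CPM (prior count 2). Genes needed 10 mean counts, and DESeq2 1.42.0 size factors served as an alternative. Log2 ratios between genes added 0.1 TPM. Counting intervals are exact Clopper-Pearson intervals at 95% on the summed counts, and 3 counts are the floor for a count of 0; reads carry no molecular identifiers, so both cover counting error only. No test was run, since 1 group of 2 samples leaves none. Alternatives covered thresholds, length, scaling, pseudocounts, posterior means, transcript class and leaving out each sample. Named were the Hox genes, up to 4 leading members of each other list with those 2-fold apart or at 0, up to 8 noncoding genes by level with 5 named in the literature, and leading transcripts of genes of 100 mean counts; marker genes are given by list. The members and lists were chosen with earlier results of these data known. The values of 1 Hox gene and of 1 gene of another list are not reported here.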

Additional observations from a re-analysis of the deposited data

How the results depend on the processing

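No paired analysis was possible because the series holds 1 group. Leaving out a sample left the count of Hox genes at 1 TPM at 19, and cluster shares between 59.1% and 59.4% (A), 2.83% and 3.66% (B), 24.2% and 24.7% (C) and 12.99% and 13.11% (D). It gave 2.19% to 3.11% for groups 1 to 3, 35.2% to 37.9% for groups 4 to 8, 59.9% to 61.7% for groups 9 to 13, and 9 to 12 noncoding genes at 1 TPM.

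The order A, C, D, B held under every unit tried, but several shares moved by more than their SD. Cluster B kept within it except with coding transcripts only, and groups 1 to 3 in each unit. With CPM, not corrected for length, A held 53.8%, C 26.6% and D 16.5%, and groups 4 to 8 held 32.7% and 9 to 13 held 64.4%. With the exon-union length A held 45.5%, C 32.9% and D 18.1%, and groups 9 to 13 held 62.8%. With protein-coding transcripts only, an alternative chosen after the data were seen, A held 45.5%, B 4.22%, C 32.2% and D 18.0%, groups 4 to 8 held 40.3% and groups 9 to 13 held 56.5%. Posterior means gave 58.8% for A and 13.2% for D, and members of at least 10 mean counts alone gave 59.4% for A.

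Hox genes at least 2-fold higher in pup 1 numbered 0 with a TPM pseudocount of 1, 1 with a minimum of 100 mean counts and 1 with posterior mean counts. Those higher in pup 2 numbered 0 with TPM at either pseudocount, 0 with 100 mean counts and 3 at 1.5-fold. The log2 ratio of Hoxd3 reversed from 1.69 to -0.61 and -0.19 with TPM pseudocounts of 0.1 and 1, where its effective length differs between the samples. With 100 mean counts, 8 genes with several transcripts were left, of which 6 had the same leader in both pups and 6 a protein-coding one. At 0.5 TPM, 14 noncoding genes passed. Over 17 results, 67 alternatives left the value within its limits, 29 moved it, 2 reversed it (Hoxd3) and 3 took a ratio below 2-fold. The last were Hoxa2 at -0.46 and Hoxa11 at -0.94 with a TPM pseudocount of 1, and Hoxa2 at -0.97 with posterior means. Depth limited the 10 members under 10 mean counts.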
